A study of Mus with 6 samples.

Results

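The genes described here are the 10 mouse genes of antigen presentation by major histocompatibility complex (MHC) class II, out of 48882 genes in the expression table. They were listed by name and role, but with earlier results of these data known. They are the chains of the classical class II molecules (H2-Aa, H2-Ab1, H2-Eb1), the invariant chain (Cd74), the peptide-loading molecule DM (H2-DMa, H2-DMb1, H2-DMb2), its modulator DO (H2-Oa, H2-Ob) and the transactivator Ciita. All 10 were found in the table with a value in every library. RNA was sequenced from 6 liver samples, 3 labelled Fabp4 knockout (FABP4-/-) and 3 labelled wild type (WT) littermates. Both groups had received a Lieber-DeCarli ethanol liquid diet for 8 weeks and then a single binge of ethanol, which models alcoholic steatohepatitis, so that ethanol is shared by every library. Fabp4 encodes a carrier of fatty acids known from fat cells, macrophages and capillary walls. The sources used here do not give strain, age or the construction of the knockout allele, and they do not state that each library is a separate mouse.

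Class II molecules carry peptides from proteins taken up by the cell to the surface, where CD4 T cells read them. Newly made alpha and beta chains assemble with the invariant chain in the endoplasmic reticulum, travel to endosomes where cathepsins trim the invariant chain, and exchange its last fragment for antigen peptide with the help of DM, which DO restrains. Transcription of the classical chains and of DM depends largely on Ciita, which binds no DNA itself and acts through factors resting on the class II promoters. In liver the set is known from dendritic cells, B cells, monocytes and Kupffer cells, the resident macrophages of the sinusoids, with lower levels on sinusoidal endothelium. In RNA from whole tissue, fewer cells of a type and less RNA per cell cannot be told apart.

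Levels are given as TPM, a gene's share of transcripts corrected for its length, back-calculated from the deposited log2 values. The table holds no read counts. Sequencing depth is therefore unknown, and precision rests on the 3 libraries per group. The library labels were checked with Fabp4 itself, which stood at 14.7, 8.15 and 19.96 TPM in wild type livers and had no value in any knockout library. Wild type replicate 2 stood apart from the other libraries on the first principal component (-38.1, against -2.50 to 22.3, with 33.9% of the variance). Hepatocyte transcripts were abundant in every library. The 6 hepatocyte markers summed to 119673 to 125859 TPM in wild type and to 118910 to 121917 TPM in the knockout. Albumin (Alb), the largest part, held the highest value of every library, the same in all of them (98737.8 TPM). The deposited values look quantile normalized, which gives the top gene 1 shared value. The closeness of these sums was therefore largely fixed in advance and does not measure hepatocyte content. Hnf4a, a hepatocyte transcription factor, was between 227 and 281 TPM.

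The level of the class II set did not separate the genotypes. None of the 8 genes abundant enough to test passed (limma, Benjamini-Hochberg adjusted p under 0.05, where 0.00706% of the 14155 genes tested passed), and 0 of the 8 had an unadjusted p under 0.05, against 8.03% of all genes tested. The only gene of the 14155 that passed was Fabp4 itself (limma adjusted p 0.0168), so failing this threshold does not mark out the class II genes. The groups overlapped for each of the 10 genes, where 13.3% of all genes tested had groups that did not. For 7 of the 10 (H2-Aa, H2-Ab1, H2-Eb1, Cd74, H2-DMa, H2-DMb1 and Ciita) all 3 knockout libraries fell inside the range of the wild type libraries. The spread was larger within the wild type group for each of the 8 genes tested. Wild type replicate 1 had the highest level of 7 of the 10 genes, and wild type replicate 2 had the lowest level of 8.

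The classical chains form the molecules that hold the peptide. H2-Aa, the alpha chain of the A molecule (mm10 chromosome 17, 34282751 to 34287771, minus strand), reached 119, 22.8 and 35.8 TPM in replicates 1, 2 and 3 of the wild type. In knockout replicates 1, 2 and 3 it was at 64.3, 41.3 and 76.7 TPM, and values are given in this order of replicates throughout. The knockout libraries lay close together between the highest and the 2 lower wild type libraries, so the groups overlapped. The wild type mean was 59.3 ± 52.2 TPM and the knockout mean 60.8 ± 17.9 TPM (SD, n = 3 each). On the log2(TPM + 1) scale, on which a pseudocount of 1 understates the change of low genes, the difference of knockout minus wild type was 0.34 (SE 0.55, 95% interval -0.93 to 1.62; limma adjusted p 0.908).

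H2-Ab1 (chromosome 17, 34263227 to 34269418, plus strand) encodes the beta chain that pairs with H2-Aa. Its values were 73.9, 10.5 and 22.1 TPM across wild type and 35.5, 23.0 and 35.2 TPM across knockout libraries. The highest and the lowest of the 6 values were both wild type. Its mean was lower in the knockout on the TPM scale (31.3 ± 7.11 against 35.5 ± 33.7 TPM, SD, n = 3 each) and higher on the log2 scale (0.23, SE 0.60, 95% interval -1.16 to 1.62), so that even the sign of the difference rested on the scale.

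H2-Eb1 (chromosome 17, 34305867 to 34316674, plus strand), the beta chain of the E molecule, was at 59.5, 8.19 and 15.4 TPM across wild type and 28.4, 18.3 and 27.3 TPM across knockout libraries. Here too the knockout libraries were enclosed by wild type replicates 1 and 3, and the mean differed in sign between the TPM scale (24.7 ± 5.53 against 27.7 ± 27.8 TPM, SD, n = 3 each) and the log2 scale (0.27, SE 0.61). The alpha chain gene of the E molecule, H2-Ea-ps, a pseudogene by the table's description though typed there as protein coding, had no value in any of the 6 libraries. The related beta chain gene H2-Eb2 was at most 0.154 TPM in any library and was listed without a value in wild type replicate 3.

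Cd74 encodes the invariant chain, which blocks the peptide groove until the endosome is reached. It was the most abundant of the 10 genes (chromosome 18, 60803849 to 60812652, plus strand), at 152, 33.0 and 48.1 TPM across wild type and 87.4, 63.2 and 110.0 TPM across knockout libraries. The order of the 6 libraries was the same as for H2-Aa. The log2 difference was 0.43 (SE 0.51, 95% interval -0.75 to 1.62; limma adjusted p 0.869), with means of 77.7 ± 64.7 TPM in wild type and 86.9 ± 23.4 TPM in the knockout (SD, n = 3 each).

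**Figure D1:**
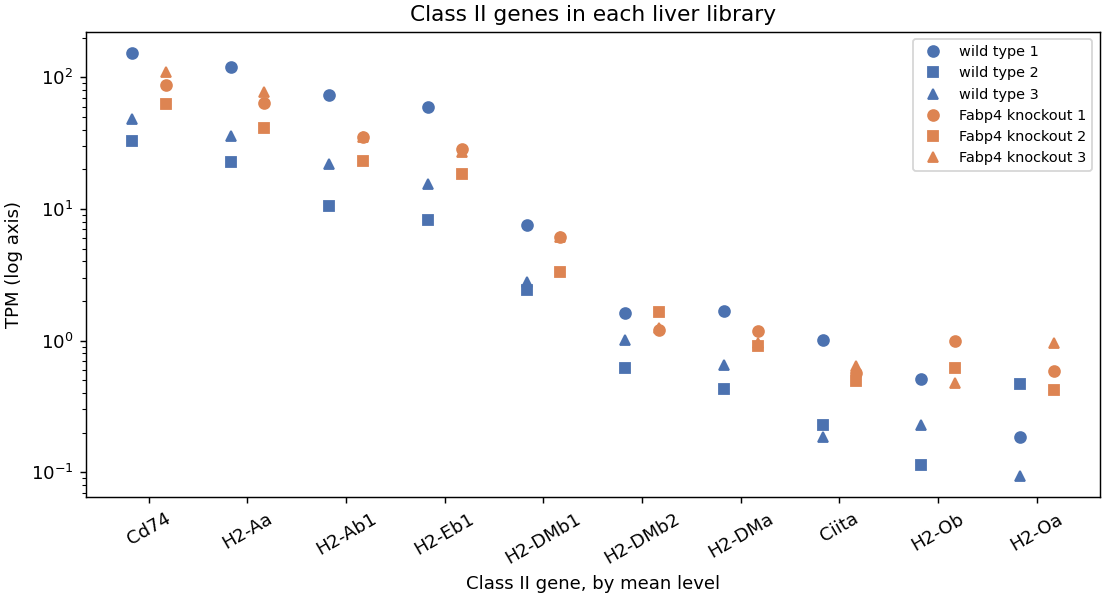
TPM of the 10 class II genes in each library (log axis), ordered by mean level, with wild type libraries in blue, knockout libraries in orange and the replicate number given by the symbol. Wild type replicates 1 and 2 mark the top and the bottom for H2-Aa, H2-Ab1, H2-Eb1, Cd74, H2-DMa and H2-DMb1, with the knockout libraries between them.

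DM is the editor that swaps the invariant chain fragment for peptide. H2-DMb1, a beta chain of DM (chromosome 17, 34153191 to 34160229, plus strand), was at 7.62, 2.41 and 2.78 TPM across wild type and 6.09, 3.31 and 6.12 TPM across knockout libraries (log2 difference 0.32, SE 0.37). The alpha chain gene H2-DMa (chromosome 17, 34122719 to 34139101) was at 1.67, 0.431 and 0.659 TPM across wild type and 1.18, 0.912 and 0.960 TPM across knockout libraries (log2 difference 0.12, SE 0.24). Both had wild type replicate 1 highest and wild type replicates 3 and 2 lowest. The level of H2-DMa relative to its partner rests on the gene model, since the table gives it a length of 6798 bases against 1284 for H2-DMb1. Multiplied by that length in kilobases, the mean TPM came to 6.58 for H2-DMa and 6.06 for H2-DMb1.

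H2-DMb2 (chromosome 17, 34145416 to 34151095), the second DM beta chain gene, did not share this order. It was at 1.61, 0.619 and 1.01 TPM across wild type and 1.203, 1.65 and 1.25 TPM across knockout libraries, with knockout replicate 2 highest (log2 difference 0.21, SE 0.21). H2-DMb1 and H2-DMb2 are near-identical copies, and reads shared between them make their separate values uncertain.

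DO binds DM and restrains it, and is known best from B cells. Its genes H2-Oa and H2-Ob fell under the abundance filter of a mean of 0.5 TPM over the 6 libraries. H2-Oa (chromosome 17, 34092379 to 34095234) was at 0.184, 0.467 and 0.0938 TPM across wild type and 0.583, 0.419 and 0.958 TPM across knockout libraries. It was the only one of the 10 genes that was lower in wild type replicate 1 than in wild type replicate 2. H2-Ob (chromosome 17, 34238895 to 34254417) was at 0.507, 0.113 and 0.230 TPM across wild type and 0.995, 0.619 and 0.475 TPM across knockout libraries, and its groups overlapped through wild type replicate 1 and knockout replicate 3. The table's span for H2-Ob is longer than that in the GRCm38.p6 RefSeq table, so its TPM, its place among the levels and the ratio of DO to DM rest on the gene model. In a fit with no abundance filter the log2 differences were 0.40 (SE 0.16) for each, with a limma adjusted p of 0.833. These were the 2 of the 10 genes with an unadjusted p under 0.05 in that fit, both higher, where 3.74% of all 26660 genes with a value were higher at that level. By an exact permutation test (two-sided) p was 0.2 for H2-Oa and for H2-Ob, where 3 against 3 libraries cannot go under 0.1.

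Ciita (chromosome 16, 10480014 to 10528606, plus strand) is the factor on which transcription of the classical chains and of DM largely depends. It was at 1.01, 0.228 and 0.185 TPM across wild type and 0.569, 0.492 and 0.636 TPM across knockout libraries. The knockout libraries were near each other and inside the wild type range (log2 difference 0.13, SE 0.23, 95% interval -0.41 to 0.67). As a share of H2-Aa, Ciita was at 0.844%, 1.0% and 0.515% in wild type and at 0.885%, 1.19% and 0.830% in the knockout.

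Set in order of mean TPM, the genes ran Cd74, H2-Aa, H2-Ab1, H2-Eb1, H2-DMb1, H2-DMb2, H2-DMa, Ciita, H2-Ob and H2-Oa. The first 6 stood in that order in all 6 libraries. H2-DMb2 was above H2-DMa in 5 of 6 libraries, Ciita above H2-Ob in 3 of 6 and H2-Ob above H2-Oa in 4 of 6, so these 3 pairs of neighbours did not differ beyond their spread. H2-DMa was above Ciita in 6 of 6 libraries, by 1.51 to 3.57 times.

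Counted over all 10 genes in the fit with no filter, 10 of 10 had a positive log2 difference, with a median of 0.30. Over all 26660 genes with a value, 54.6% were positive, with a median of 0.01. For 6 of the 10 genes wild type replicate 1 was highest and wild type replicate 2 lowest, so they are not 10 independent measurements. For 6 of the 8 genes tested the sign turned when 1 wild type library was left out. Without wild type replicate 1, the log2 differences became 1.01 for H2-Aa, 0.96 for H2-Ab1, 1.04 for H2-Eb1, 1.07 for Cd74 and 0.74 for H2-DMb1. These 5 of the 8 genes tested in that fit then had an unadjusted p under 0.05, all higher, where 6.03% of all genes were higher at that level, and none passed (smallest limma adjusted p 0.498). Without wild type replicate 2, the differences became -0.15 for H2-Aa, -0.39 for H2-Ab1, -0.32 for H2-Eb1, -0.01 for Cd74 and -0.06 for H2-DMa. Ciita came to -0.0046 without wild type replicate 3. For the 5 genes that turned without wild type replicate 2, the wild type group held both extremes. Leaving out the highest library raised the difference, and leaving out the lowest lowered it.

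**Figure D2:**
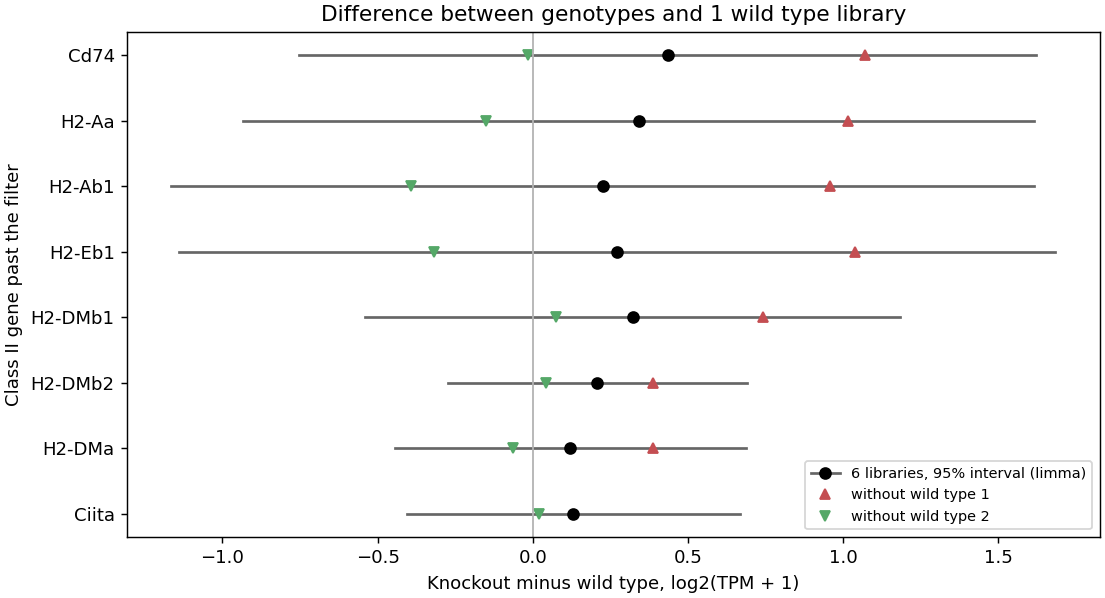
Knockout minus wild type difference on the log2(TPM + 1) scale for the 8 class II genes past the abundance filter, with the limma 95% interval over 6 libraries (black) and the difference without wild type replicate 1 (red) or without wild type replicate 2 (green). Every black interval includes 0, and the estimates for H2-Aa run from -0.15 to 1.01 with the wild type library left out (Ciita falls under the filter without wild type replicate 1).

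The spread of the classical genes within the wild type group was large for this table. The highest wild type value was 7.26 times the lowest for H2-Eb1, 7.05 times for H2-Ab1, 5.21 times for H2-Aa and 4.598 times for Cd74. In the knockout group the same ratio was 1.55 for H2-Eb1, 1.54 for H2-Ab1, 1.86 for H2-Aa and 1.74 for Cd74. Of all genes tested, 0.325% had a larger wild type SD on the log2 scale than H2-Eb1, 0.389% than H2-Ab1, 0.601% than H2-Aa and 0.735% than Cd74. In the knockout group 17.4% had a larger SD than H2-Eb1 and 8.58% a larger one than H2-Aa. The wild type SD exceeded the knockout SD for 8 of the 8 class II genes tested, as it did for 54.1% of all genes tested. With 3 libraries per group and no test of variances run, these values describe the libraries.

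While the level varied, the proportions among the classical transcripts varied less. H2-Eb1 stood at 0.805, 0.782 and 0.696 of H2-Ab1 across wild type and at 0.7997, 0.795 and 0.775 across knockout libraries. Across all 6 libraries this ratio varied 1.16 times between its lowest and highest value. The ratio of Cd74 to H2-Aa lay between 1.28 and 1.45 in wild type and between 1.36 and 1.53 in the knockout, varying 1.2 times. H2-Ab1 relative to H2-Aa lay between 0.459 and 0.620 in wild type and between 0.459 and 0.558 in the knockout, varying 1.35 times. H2-Eb1 relative to H2-Aa varied most of these 4 ratios, 1.40 times, from 0.356 to 0.499. In each of these ratios the groups overlapped.

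The DO chains relative to the DM chains gave a different picture. The summed TPM of H2-Oa and H2-Ob was 6.34%, 16.7% and 7.28% of that of H2-DMa, H2-DMb1 and H2-DMb2 in wild type and 18.6%, 17.7% and 17.2% in the knockout. Wild type replicates 1 and 3 were low, and wild type replicate 2 came within a percentage point of the knockout range. This ratio was formed after the values of its members had been seen, and both genes of its numerator are below the abundance filter. Its exact permutation p (two-sided) was 0.1, the smallest that 3 against 3 libraries allow, and is no independent support for a ratio chosen in this way.

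**Figure D3:**
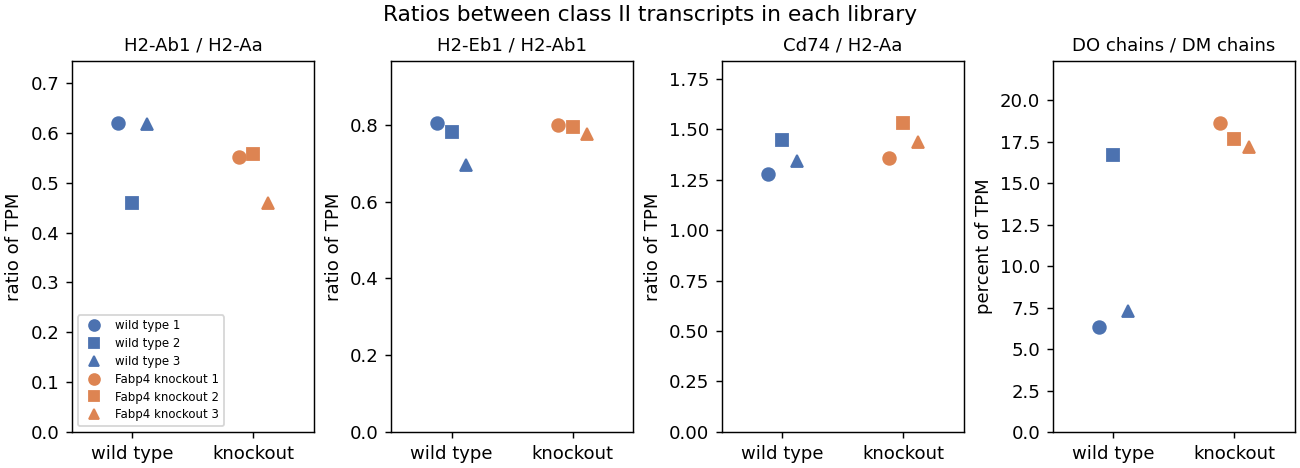
Ratios of TPM between class II transcripts in each library, with wild type in blue and knockout in orange and each axis starting at 0. The 3 left panels show the classical chains and the invariant chain in proportions that varied 1.16 to 1.35 times, and the right panel shows the DO chains at 17.2% to 18.6% of the DM chains in the knockout libraries against 6.34% to 16.7% in wild type.

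Of the 10 genes, 8 lie within 224 kilobases of chromosome 17 (34092379 to 34316674), together with genes of other function. Of the 7 other rows of the table in that interval, 5 were abundant enough to test. Psmb8 and Psmb9, immunoproteasome subunits that make peptides for class I, were 2.26 and 1.65 times as high in wild type replicate 1 as in wild type replicate 2. The peptide transporter genes Tap1 and Tap2, which feed class I, were 1.37 and 1.35 times as high, and Brd2, a chromatin reader, 1.28 times. The corresponding ratio was 7.26 for H2-Eb1 and 2.60 for H2-DMb2, the lowest of the class II genes in this interval other than H2-Oa (0.395). None of the 5 passed the limma test between genotypes, and 0 of 5 had an unadjusted p under 0.05, against 8.03% of all genes.

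The factors that sit on class II promoters lacked the spread of the genes they serve. Their highest wild type value was 1.03 (Rfx5) to 1.46 (Rfxank) times the lowest, against 5.45 times for Ciita. All 7 of the list were tested: the RFX subunits Rfx5, Rfxap and Rfxank, the NF-Y subunits Nfya, Nfyb and Nfyc, and Creb1. None passed the adjusted threshold, and Rfxap alone (1 of 7) had an unadjusted p under 0.05, against 8.03% of all genes tested. Rfxap was at 5.32, 7.18 and 7.06 TPM across wild type and 10.2, 8.74 and 10.5 TPM across knockout libraries (log2 difference 0.53, SE 0.15; limma adjusted p 0.530). Rfx5, the DNA-binding subunit, was at 3.12, 3.21 and 3.22 TPM across wild type and 3.45, 3.85 and 3.87 TPM across knockout libraries (log2 difference 0.17, SE 0.12). For both, every knockout library was above every wild type library, as for 8.94% of all genes tested. Wild type replicate 1, highest for the class II chains, was lowest for both. The median log2 difference of the 7 was 0.02, against 0.04 over all genes tested.

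Interferon gamma is the best-known inducer of Ciita in cells other than professional antigen-presenting cells. Ifng itself had a value in wild type replicate 1 alone (0.238 TPM) and was listed without a value in the other libraries. Of the 9 genes of this axis 8 were tested and none passed, with 0 at an unadjusted p under 0.05, against 8.03% of all genes. Irf1, a factor induced by interferon, was at 19.9, 11.7 and 11.2 TPM across wild type and 16.95, 16.0 and 16.5 TPM across knockout libraries. Wild type replicate 1 was the highest library for Irf1, as it was for the class II chains. The receptor chain gene Ifngr1 had the smallest p of the axis (log2 difference 0.39, SE 0.19; limma adjusted p 0.676).

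The endosomal enzymes that trim the invariant chain and cut antigen did not pass. Of 8 tested 7 were positive and 1 negative, where 57.4% of all genes tested were positive, and the median log2 difference was 0.18 against 0.04 over all genes. Ctsl, cathepsin L, was the negative one, at 718, 1457 and 674 TPM across wild type and 680, 356 and 543 TPM across knockout libraries (log2 difference -0.81, SE 0.34; limma adjusted p 0.614), and was the single gene of the list (1 of 8) at an unadjusted p under 0.05, against 8.03% of all genes. Ctss, cathepsin S, which trims the invariant chain in dendritic cells and B cells, was at 73.9, 27.1 and 28.7 TPM across wild type and 43.2, 53.3 and 86.9 TPM across knockout libraries. Knockout replicate 3 and wild type replicate 1 were its highest libraries. Ifi30, the thiol reductase of endosomes, was at 40.8, 19.2 and 21.5 TPM across wild type and 31.8, 26.2 and 49.1 TPM across knockout libraries. Lgmn, asparagine endopeptidase, had a log2 difference of 0.59 (SE 0.27; limma adjusted p 0.657).

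At the cell surface, March1 encodes the ubiquitin ligase that removes class II from the membrane, and Cd83 opposes it. March1 was at 2.61, 0.652 and 0.805 TPM across wild type and 1.18, 1.66 and 3.20 TPM across knockout libraries, and Cd83 had a log2 difference of 0.22 (SE 0.22). The related ligase gene March8 was at 21.1 to 27.6 TPM in all libraries. Of the costimulation and checkpoint genes Cd80, Cd86, Cd40, Icosl, Cd274 and Pdcd1lg2, 4 were tested and none passed, with 0 at an unadjusted p under 0.05. Over all genes tested that share was 8.03%. Cd86, a costimulatory ligand on antigen-presenting cells, was at 3.74, 1.04 and 1.39 TPM across wild type and 1.84, 4.31 and 4.88 TPM across knockout libraries. On the T cell side, 3 of 8 genes passed the abundance filter, and 0 of these were called. The 8 genes summed to 5.62, 2.37 and 3.82 TPM across wild type and 4.62, 3.72 and 4.63 TPM across knockout libraries. As for the summed class II genes, wild type replicate 1 was highest and wild type replicate 2 lowest. Cd4, the coreceptor that binds class II, was at most 0.523 TPM in any library.

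**Figure D4:**
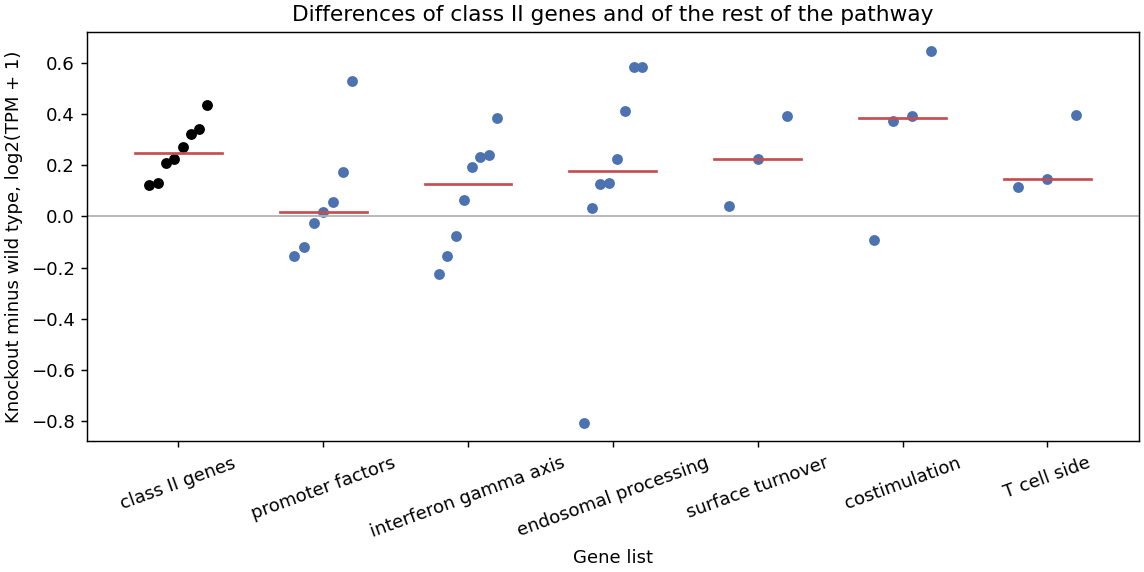
Knockout minus wild type difference on the log2(TPM + 1) scale of each tested gene (points) and the list median (red line), for the class II genes (black) and the 6 lists of the rest of the pathway (blue). The class II genes lie between 0.12 and 0.43, the promoter factors have a median of 0.02, and Ctsl is the lowest point at -0.81.

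Markers of the cells that can carry class II RNA varied with the libraries too. Dendritic cell markers summed to 16.3, 8.47 and 11.4 TPM in wild type and to 14.6, 12.8 and 15.7 TPM in the knockout, the same order of libraries as the summed class II genes (417, 78.8 and 126 TPM, and 226, 153 and 259.6 TPM). Of the 12 dendritic cell markers 6 were tested and none passed, and the defining marker Flt3 was at most 0.181 TPM. Fscn1, an actin bundler of mature dendritic cells, was alone of the 6 at an unadjusted p under 0.05, against 8.03% of all genes tested. Its mean was 1.90 ± 0.454 TPM in wild type and 3.10 ± 0.171 TPM in the knockout (SD, n = 3 each, limma adjusted p 0.536). Irf8, a factor of dendritic cell and monocyte development, was at 6.53, 2.83 and 3.08 TPM across wild type and 3.05, 3.63 and 4.11 TPM across knockout libraries. It was the largest part of the sum in wild type replicate 1, so it weighed heavily on the order of the sums. Xcr1 and Batf3 were also highest in that library, but Cd209a was lowest there (0.131 TPM). Fscn1 was lower there (2.39 TPM) than in every knockout library (2.94 to 3.28 TPM).

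Kupffer cell and macrophage markers summed to more than the class II genes in all 6 libraries. The 15 markers, all tested, summed to 228 to 630.5 TPM in wild type and to 432 to 941 TPM in the knockout, with knockout replicate 3 highest, wild type replicate 1 next and wild type replicate 2 lowest. None passed, 14 were positive, and 4 were higher at an unadjusted p under 0.05 (Clec4f, Vsig4, Timd4 and Itgam), against 5.12% of all genes tested. Vsig4, a complement receptor of resident Kupffer cells, was at 40.7, 28.0 and 27.5 TPM across wild type and 45.5, 58.1 and 109 TPM across knockout libraries. Summed H2-Aa, H2-Ab1, H2-Eb1 and Cd74 stood at 0.641, 0.328 and 0.448 of the macrophage markers in wild type and at 0.499, 0.276 and 0.265 in the knockout, and the groups overlapped.

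The sum of the B cell markers did not follow the library order of the class II genes. Their summed TPM was 6.03, 4.66 and 4.47 in wild type and 10.02, 7.49 and 9.88 in the knockout, so that every knockout library was above every wild type library. Of the 8 markers 5 were tested and none passed. For 3 of these 5 (Cd79b, Ms4a1 and Fcer2a) every knockout library was above every wild type library, against 8.94% of all genes tested. The log2 difference of Fcer2a was only 0.087. The groups overlapped for Cd79a and Bank1. Bank1 was nearer to the class II order, at 1.77, 0.607 and 0.762 TPM across wild type and 1.43, 1.27 and 1.96 TPM across knockout libraries. Cd79b, a signalling chain of the B cell receptor, was at 1.34, 0.397 and 0.647 TPM across wild type and 2.44, 2.08 and 2.73 TPM across knockout libraries (log2 difference 0.96, SE 0.22; limma adjusted p 0.522). Ms4a1, the B cell surface protein CD20, was at 0.570, 0.667 and 0.491 TPM across wild type and 2.07, 1.02 and 1.66 TPM across knockout libraries (log2 difference 0.69, SE 0.19; limma adjusted p 0.522). These markers stood beside the DO genes H2-Oa and H2-Ob, which also averaged higher in the knockout, and their part in that difference was not tested. The defining B cell factor Pax5 was at most 0.158 TPM. Endothelial markers summed to 103 to 140 TPM in wild type and to 145 to 168 TPM in the knockout, with 8 of 8 positive and none passing. Of these 4 were higher at an unadjusted p under 0.05, against 5.12% of all genes tested, of which 57.4% were positive. Cell division genes (Mki67, Top2a, Mcm3, Mcm5 and Cdk1) summed to 3.17 to 8.13 TPM in wild type and to 9.04 to 34.2 TPM in the knockout, with no overlap and with knockout replicate 3 far above the next library (10.8 TPM). All 5 were positive, 1 was higher at an unadjusted p under 0.05, against 5.12% of all genes tested, and none passed. Gene by gene, only Mcm5 had all knockout libraries above all wild type libraries, as 8.94% of all genes tested did. Mki67 was highest in wild type replicate 1. Neutrophil markers summed to 20.7 to 49.5 TPM in wild type and to 15.4 to 20.1 TPM in the knockout, lower without overlap but by a narrow gap. Among single genes, Retnlg alone (1 of 4 tested) had groups that did not overlap, against 13.3% of all genes tested in either direction. The groups overlapped for S100a8 and S100a9, the largest parts of the sum. Of the 4 tested 0 passed, and 3 were lower at an unadjusted p under 0.05, against 2.91% of all genes. Of the remaining lists, 0 of the 5 cholangiocyte and 6 hepatocyte genes tested passed. The part of any of these cell types in the class II levels was not tested.

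**Figure D5:**
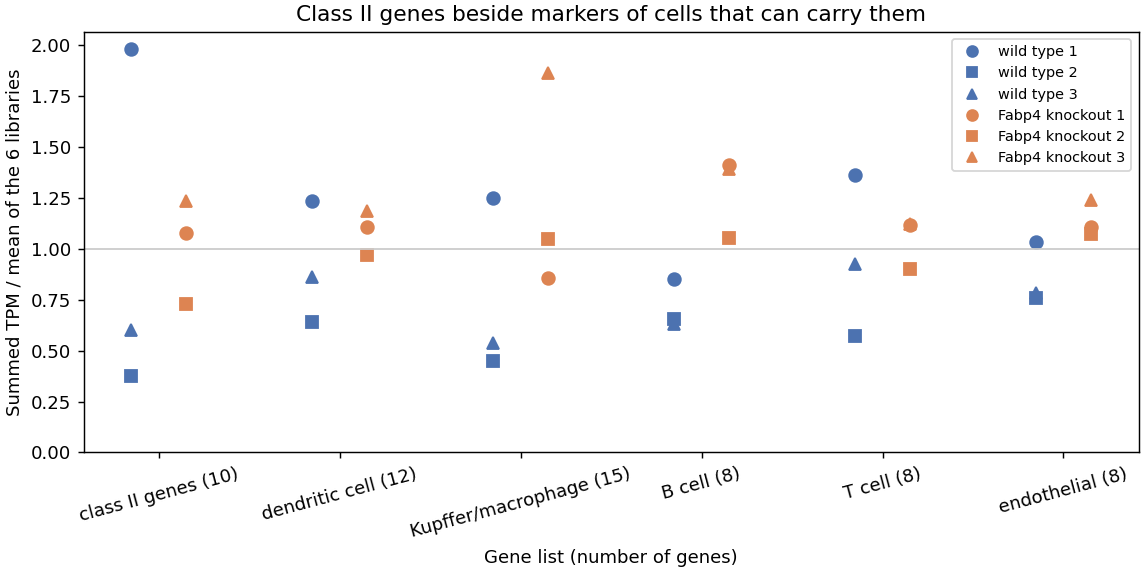
Summed TPM of the class II genes and of markers of 5 other groups of genes in each library, divided by the mean of the 6 libraries (wild type blue, knockout orange, number of genes in parentheses). Wild type replicate 1 is highest for the class II genes, the dendritic cell markers and the T cell genes, and knockout replicate 3 for the Kupffer and macrophage markers. All knockout libraries lie above all wild type libraries for the B cell and endothelial markers.

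Across the 6 libraries, the pattern of the class II set was compared with every other protein-coding gene of at least 1 TPM. The set was summarised by a score, the mean over the 8 tested members of log2(TPM + 1) after centring each gene. The score was 0.85, -0.84 and -0.39 in wild type and 0.23, -0.14 and 0.29 in the knockout. The 8 genes most like it were Nepro, Vcam1, Spic, Stx16, Luc7l2, Raver1, Fcgr3 and Trpv2, with Pearson correlations of 0.984 to 0.965 over 6 libraries, given as a description with no test. Vcam1, a vascular adhesion molecule, was at 25.5, 8.91 and 10.5 TPM across wild type and 14.98, 12.3 and 15.8 TPM across knockout libraries. Spic, a transcription factor of iron-handling macrophages, was at 3.57, 1.497 and 1.82 TPM across wild type and 2.56, 1.87 and 2.85 TPM across knockout libraries. Fcgr3, an activating receptor for immunoglobulin G, was at 14.4, 5.25 and 6.02 TPM across wild type and 11.3, 8.69 and 12.5 TPM across knockout libraries. Of the 11033 genes compared, 133 (1.21%) had a correlation above 0.9.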

How the data were processed

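The study's 6 liver libraries, 3 wild type and 3 Fabp4 knockout, were grouped by their labels. The submitters' processing notes name FastQC, Trimmomatic and the build mm10; the aligner, quantifier, annotation and strandedness were not given in the sources used here. Per the file headers the columns hold TPM. The deposited numbers are in fact log2 TPM, as read from their range and from antilogarithms summing to 983800 to 1018120 per library. Their nearly identical sorted values are those that quantile normalization leaves, so a shift of all genes would not be seen. A missing value was taken as 0 TPM.

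Values were back-transformed, and log2(TPM + 1) of the 14155 genes with a mean of at least 0.5 TPM was tested with limma 3.58.1 in R 4.3.3 (group as the only term, eBayes with trend, two-sided, Benjamini-Hochberg over all genes, threshold 0.05). The script was tested on simulated data. Differences are knockout minus wild type, and p-values reflect only the spread of these libraries, which may be technical. The members, the 14 other lists and the rule for named genes (all members, up to 4 of each list by smallest p plus defining markers, the 8 most alike genes) were chosen with earlier results of these data known. Other genes named, those at an unadjusted p under 0.05 or lying in the interval among them, were chosen after their values were seen. All list genes were matched by symbol, except March1 and March8, which a spreadsheet had turned into dates and which were matched by gene number with the GRCm38.p6 RefSeq table. Promoter sequences were not used here.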

Additional observations from a re-analysis of the deposited data

How the results depend on the processing

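None of the class II genes passed under any of the 14 alternatives (pseudocounts of 0.1 and 5, no filter, a filter at 5 TPM, median scaling, quantile normalization, no variance trend, the replicate block, and each library left out), and the same held for the genes of the other lists. The count over all genes, 1 as reported, was 0 with a pseudocount of 5, 0 with no filter and 0 under the replicate block, and ranged from 0 to 6 with 1 library left out. The block changed no call among the class II genes, lowering the SE of H2-Aa from 0.55 to 0.38 and raising that of H2-DMb2 from 0.21 to 0.24. Over all genes tested, same-numbered libraries did not deviate together (correlations of -0.26, -0.27 and -0.05), and no wild type library correlated best with its own number. Replicate 2 had the lowest class II score in both groups (-0.84 and -0.14), and so few libraries cannot exclude that the numbers pair the samples. With 1 library left out, the log2 difference ranged from -0.15 to 1.01 for H2-Aa, -0.39 to 0.96 for H2-Ab1, -0.32 to 1.04 for H2-Eb1, -0.015 to 1.07 for Cd74, -0.064 to 0.39 for H2-DMa and -0.0046 to 0.17 for Ciita, the last lowest without wild type replicate 3. With pseudocounts of 0.1 and 5 the difference came to 0.50 and 0.028 for Ciita, 0.31 and 0.029 for H2-DMa, 0.39 and 0.069 for H2-DMb2, and 0.41 and 0.16 for H2-DMb1, and with 5 to 0.18 for H2-Eb1. The class II score difference, 0.26, ranged from -0.06 without wild type replicate 2 to 0.75 without wild type replicate 1, and from 0.16 to 0.37 under the other alternatives. The cause was not tested. The number of members tested ranged from 4 to 10 over the alternatives. Scaling kept the sign of all 8 members, but the deposited values already looked quantile normalized, which left it little room to change them. Depth is unknown, so the reads behind levels near or under 1 TPM (DO, Ciita, H2-DMa, lymphocyte and dendritic cell markers) cannot be given.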
